A study of Mus musculus with 4 samples.

Results

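The collagen chain genes, which encode the polypeptides that wind around each other into the triple helix of every collagen, were followed in cultured mouse vascular smooth muscle cells. Every gene symbol made of Col, a number, a and a number was taken, which gave 44 genes of the 22488 listed in the deposited tables. Of these, 11 encode chains of fibrillar collagens, 9 of network collagens, 9 of fibril-associated collagens, 6 of the beaded filament collagen VI and 9 of other types (anchoring fibril, transmembrane, multiplexin and minor collagens). The cells, contractile cells of the vessel wall from the C57BL/6 strain at passages 4-10, were transfected for 48 hours. The control group received a scramble siRNA, which has no intended target, and the other group an siRNA against circEsyt2, a circular RNA that shares its name with the gene Esyt2. Each group has 2 libraries, called replicates 1 and 2 here after the sample titles, and the labels do not state whether separate cultures were used, so the p-values reflect nothing beyond the scatter among these 4 libraries. No untransfected library was analysed, so loss under the targeting siRNA and gain under the scramble siRNA cannot be told apart. In such bulk RNA fewer cells of a type cannot be told apart from less RNA per cell.

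Collagens give the arterial wall its tensile strength and its basement membranes, and smooth muscle cells are a main source of them. Fibrillar chains pack into the banded fibrils of types I, III and V, while fibril-associated chains coat those fibrils and network chains form sheets such as the type IV mesh of the basement membrane. Collagen VI assembles into beaded filaments that link cells to the surrounding matrix, and it needs its alpha1, alpha2 and alpha3 chains together.

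The libraries held 2516428 and 4116791 assigned fragments with scramble siRNA, against 3765056 and 3127224 with circEsyt2 siRNA, of which 0.794% to 1.07% fell in collagen chains. All 8 smooth muscle markers checked were above 0 in every library, but Myocd and Des were too low to be tested. Of the 6 tested, 5 were called lower with circEsyt2 siRNA, beside 7.26% of all tested genes (limma, as for the chains). With eBayes without a trend, Acta2, Myh11, Smtn and Lmod1 lost their calls. FPKM scales the number of sequenced fragments to the length of the gene and to the total of the library. The smooth muscle markers summed to 1530 and 1540 FPKM against 919 and 873 FPKM. Most of that was Acta2 (1421 and 1446 against 883 and 829 FPKM). With scramble siRNA, Tagln measured 8.80 and 10.39 FPKM and Myh11 8.58 and 7.77 FPKM. Myocd reached at most 1.05 FPKM in any library and Des at most 1.03 FPKM. Hepatocyte markers were high in both circEsyt2 siRNA libraries, and most of all in replicate 1. All 10 of them were above 0 in both of these libraries. Alb measured 9.16 and 1.66 FPKM with scramble siRNA, against 2083 and 65.7 FPKM with circEsyt2 siRNA. In replicate 1 the markers summed to 3138 FPKM (1.01% of the summed FPKM). Their sum was 99.1 FPKM in replicate 2, and 12.7 and 3.71 FPKM in the scramble libraries, where 3 and 4 of the 10 were at 0. Macrophage markers summed to 29.3 FPKM in circEsyt2 siRNA replicate 1, of which Lyz2 gave 21.4 FPKM, and to at most 5.92 FPKM elsewhere. Cd68, Adgre1 and Ptprc were also highest in that library, at 3.59, 1.89 and 0.653 FPKM. Csf1r was not, at 1.74 FPKM there, against 1.87 and 3.48 FPKM with scramble siRNA. Fibroblast markers summed to 349 and 346 against 264 and 241 FPKM. Of the 6 tested, 3 (Pdgfra, Thy1 and Mfap5) were called lower and none higher, beside 7.26% and 5.47% of all tested genes. Dcn, the most abundant of them, was not lower. It measured 183.7 and 189.6 against 205 and 191.5 FPKM (limma adjusted p = 0.585). Lum and Dpt were not called either. Endothelial markers summed to 3.94 and 3.92 against 8.98 and 7.49 FPKM. Of the 2 tested, Kdr was called higher, beside 5.47% of all tested genes. It measured 1.23 and 1.26 against 4.32 and 4.00 FPKM (limma adjusted p = 0.0303). Kdr was not called when 1 library of the circEsyt2 siRNA pair was left out. Cdh5 and Emcn also lay above both scramble libraries in each circEsyt2 siRNA library. Pecam1 (0.128 and 0.351 against 0.768 and 0 FPKM) and Tek (0.337 and 1.13 against 0.733 and 0.611 FPKM) did not. The part of the cells behind these markers in the chain results was not tested. In any library keratinocyte markers summed to at most 0.774 FPKM, osteoblast markers to at most 2.33 FPKM and chondrocyte markers to at most 11.1 FPKM. Sox9 made up most of the chondrocyte sum with scramble siRNA (8.84 and 10.05 FPKM). It was at 1.16 and 4.41 FPKM with circEsyt2 siRNA and was not called (limma adjusted p = 0.0623). Krt14 of the keratinocyte list and Chad of the chondrocyte list were listed at 0 in all 4 libraries.

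A group of 5 collagen chain genes was lower with circEsyt2 siRNA and none was higher. Of the 19 chains tested, the 5 that fell were Col6a1 and Col6a3 of the beaded filament class, Col12a1 of the fibril-associated class, and Col8a1 and Col4a5 of the network class. Among all 11290 tested genes 7.26% were called lower and 5.47% higher (limma on log2(FPKM + 1), Benjamini-Hochberg adjusted p under 0.05). A gene was tested if its mean FPKM over the 4 libraries was at least 1. The median log2 fold change of the 19 chains was −0.35, with 63.2% of them below 0, beside a median of 0.00 and 49.8% below 0 for all tested genes. No fibrillar chain passed the test, and no chain of the other types did.

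The 5 genes that fell lie on different chromosomes. Col6a1 has its partner gene Col6a2, which was not called, as a neighbour on the same strand. On GRCm38, Col6a1 spans chr10:76708792-76726168 and Col6a2 spans chr10:76595762-76623630, both on the minus strand with 85161 bases between them. Col6a3 lies at chr1:90765923-90843971 (minus strand), Col12a1 at chr9:79598991-79718831 (minus strand) and Col8a1 at chr16:57624258-57754737 (minus strand). Col4a5, at chrX:141475385-141689234 on the plus strand, stands head to head with Col4a6, with 1308 bases between their starts. Col4a1 and Col4a2 also stand head to head on chromosome 8, and their annotated genes overlap by 22 bases.

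The stretches just upstream of the start are shown for Col6a1, Col6a2, Col6a3, Col8a1 and Col4a5, so that the 3 chains of one filament can be read beside each other and beside the network chains that fell. They come from RefSeq promoter windows on GRCm38.p6, cut to the bases before the start that lie in no exon of the GENCODE M21 annotation. They cover chr10:76726169-76726294, chr10:76623631-76623880, chr1:90843972-90844221 and chr16:57754738-57754987 on the minus strand and chrX:141475169-141475384 on the plus strand, each written 5′ to 3′ on the strand of its gene. Capitals mark matches on either strand to the CCAAT box (CCAAT), the GC box (GGGCGG), the TATA box (TATAAA) or the AP-1 motif (TGACTCA).

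Col6a1: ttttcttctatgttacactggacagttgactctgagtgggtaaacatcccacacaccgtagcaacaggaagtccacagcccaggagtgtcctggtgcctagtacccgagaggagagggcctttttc
Col6a2: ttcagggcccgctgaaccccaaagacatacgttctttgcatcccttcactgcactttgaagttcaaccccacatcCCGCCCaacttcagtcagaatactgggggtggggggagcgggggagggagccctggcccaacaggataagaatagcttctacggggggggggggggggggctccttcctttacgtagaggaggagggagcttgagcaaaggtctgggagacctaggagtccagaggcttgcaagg
Col6a3: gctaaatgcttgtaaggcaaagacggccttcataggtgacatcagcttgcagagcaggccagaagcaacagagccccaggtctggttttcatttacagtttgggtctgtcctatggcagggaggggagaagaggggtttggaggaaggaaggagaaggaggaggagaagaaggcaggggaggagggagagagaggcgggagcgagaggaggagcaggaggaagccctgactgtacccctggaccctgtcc
Col8a1: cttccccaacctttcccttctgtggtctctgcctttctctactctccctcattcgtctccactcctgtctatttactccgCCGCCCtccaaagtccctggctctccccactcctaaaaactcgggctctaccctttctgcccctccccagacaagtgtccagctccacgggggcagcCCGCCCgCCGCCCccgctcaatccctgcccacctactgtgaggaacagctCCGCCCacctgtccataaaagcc
Col4a5: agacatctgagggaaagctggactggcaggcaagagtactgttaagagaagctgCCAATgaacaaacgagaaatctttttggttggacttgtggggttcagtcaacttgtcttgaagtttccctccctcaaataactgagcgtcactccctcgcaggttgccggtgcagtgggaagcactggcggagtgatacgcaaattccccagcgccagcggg

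The 3 collagen VI stretches share no marked motif: that of Col6a2 holds 1 GC box, and those of Col6a1 and Col6a3 hold none of the 4 motifs. The Col6a1 stretch was cut to 126 bases, against 250 bases each for Col6a2 and Col6a3, so its lack of a match covers less sequence. The Col8a1 stretch holds 4 GC boxes and the Col4a5 stretch 1 CCAAT box. Of all 32851 windows of 300 bases in the RefSeq table, 35.7% hold a GC box, 37.4% a CCAAT box, 13.6% a TATA box and 5.2% an AP-1 motif. These whole windows include 50 bases after the start, so their shares are not matched to the shorter stretches shown (126 to 250 bases). Windows were found for 35 of the 44 chains (38 windows, since some genes have more than 1 start). Col12a1, which fell, has none. Of those 38 windows, 23 hold a GC box, 13 a CCAAT box, 5 a TATA box and 1 an AP-1 motif. A match is a string of letters and does not show a binding site.

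Across the classes, the beaded filament and fibril-associated sums were furthest below their scramble levels. The beaded filament chains summed to 60.2 and 48.5 FPKM in the scramble libraries and to 19.1 and 18.2 FPKM in circEsyt2 siRNA replicates 1 and 2, which is 0.351 and 0.335 of the scramble mean. The fibril-associated chains summed to 102 and 92.1 FPKM against 36.6 and 42.9 FPKM, or 0.376 and 0.441 of the scramble mean, and most of that sum is Col12a1. In both classes the groups do not overlap. Without Col12a1 the fibril-associated sum was 10.6 and 12.8 FPKM against 7.09 and 8.45 FPKM.

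The fibrillar and network sums differed less from the scramble level. Fibrillar chains summed to 845 and 731 FPKM with scramble siRNA and to 660 and 822 FPKM with circEsyt2 siRNA, so only replicate 1 lay below both scramble libraries. Network chains summed to 169.5 and 169.8 FPKM against 154.6 and 169.4 FPKM, so replicate 2 stood at 0.998 of the scramble mean. The other types summed to 9.87 and 9.19 FPKM against 11.8 and 8.04 FPKM, with 1 circEsyt2 siRNA library above and the other below the scramble values. As a share of all collagen FPKM the fibrillar class made up 71.2% and 69.6% with scramble siRNA, against 74.8% and 77.5% with circEsyt2 siRNA. The beaded filament share was 5.07% and 4.62% against 2.16% and 1.72%. These sums were not tested.

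**Figure D1:**
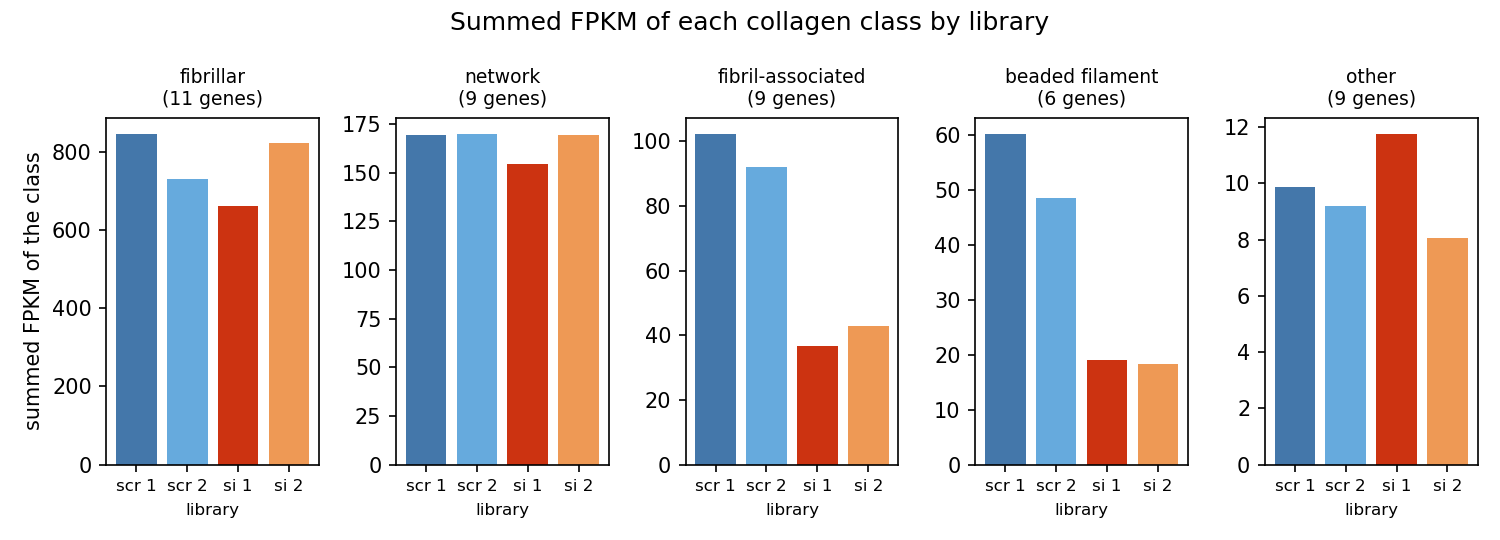
Summed FPKM of the chains of each class (vertical axis, a separate scale per panel, from 0) in each library (horizontal axis: scr, scramble siRNA replicates 1 and 2; si, circEsyt2 siRNA replicates 1 and 2); each bar is 1 library. The beaded filament bars go from 60.2 and 48.5 to 19.1 and 18.2 FPKM, while the fibrillar and network bars of circEsyt2 siRNA replicate 2 (822 and 169.4 FPKM) lie near those of the scramble libraries.

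Collagen VI had the lowest circEsyt2 siRNA levels relative to scramble of all classes. Col6a1, which encodes the alpha1 chain, measured 41.2 and 33.9 FPKM with scramble siRNA and 11.2 and 11.8 FPKM with circEsyt2 siRNA. The circEsyt2 siRNA libraries lay close together, far below both scramble libraries. By group mean this is 37.6 ± 5.13 against 11.5 ± 0.431 FPKM (SD, n = 2), 3.26-fold lower, and on the log2(FPKM + 1) scale Col6a1 fell by 1.62 (SE 0.15; limma adjusted p = 0.00453). Col6a3, the gene of the alpha3 chain, measured 11.2 and 8.59 against 2.98 and 2.25 FPKM. That is 9.91 ± 1.87 against 2.61 ± 0.516 FPKM (SD, n = 2), 3.80-fold lower, and Col6a3 fell by 1.59 on that scale (SE 0.22; limma adjusted p = 0.0108). Behind the lower pair of values are 134 and 84 fragments.

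Col6a2, the alpha2 chain gene next to Col6a1, measured 7.25 and 5.16 FPKM with scramble siRNA and 3.64 and 3.19 FPKM with circEsyt2 siRNA. Its groups do not overlap, but its log2 fold change of −0.69 (SE 0.22) did not pass the test (limma adjusted p = 0.0961). The ratio of Col6a2 to Col6a3 FPKM was 0.646 and 0.601 with scramble siRNA, against 1.22 and 1.42 with circEsyt2 siRNA. The ratio of Col6a1 to Col6a2 was 5.68 and 6.57 against 3.08 and 3.71. Neither shift between chains was tested. Col6a4, Col6a5 and Col6a6, genes of alternative chains, were at or below 0.654 FPKM in every library.

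Fibril-associated chains were led by Col12a1, whose product decorates the surface of type I fibrils. Col12a1 measured 91.7 and 79.3 FPKM with scramble siRNA and 29.5 and 34.4 FPKM with circEsyt2 siRNA. Both circEsyt2 siRNA libraries lay well below both scramble libraries. The group means were 85.5 ± 8.76 and 31.9 ± 3.48 FPKM (SD, n = 2), a 2.68-fold difference, and Col12a1 fell by 1.39 on the log2 scale (SE 0.14; limma adjusted p = 0.00501). Col16a1, another chain of this class, measured 6.95 and 7.09 FPKM against 2.36 and 4.93 FPKM. Its 2 circEsyt2 siRNA libraries were both lower but differed by 0.82 on the log2 scale, and its log2 fold change of −0.85 (SE 0.30) did not pass the test (limma adjusted p = 0.121). Col20a1, tested on 13 to 31 fragments per library, measured 1.005 and 1.039 against 1.60 and 1.93 FPKM (limma adjusted p = 0.385).

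Network chains split by gene. Col8a1, the alpha1 chain of collagen VIII, a short-chain collagen made by vascular cells, measured 45.6 and 49.4 FPKM with scramble siRNA and 21.9 and 27.6 FPKM with circEsyt2 siRNA. The means were 47.5 ± 2.72 and 24.8 ± 4.05 FPKM (SD, n = 2), and Col8a1 fell by 0.92 on the log2 scale (SE 0.15; limma adjusted p = 0.0181). Col4a5, which encodes the alpha5 chain of basement membrane collagen IV, measured 14.9 and 16.6 against 8.14 and 7.52 FPKM. Its means were 15.7 ± 1.26 and 7.83 ± 0.441 FPKM, and Col4a5 likewise fell by 0.92 (SE 0.15; limma adjusted p = 0.0176). For both genes the groups do not overlap. With eBayes without a trend, neither call held (adjusted p = 0.066 for Col8a1 and adjusted p = 0.0513 for Col4a5, limma).

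Col4a1 and Col4a2, the main chains of collagen IV in most basement membranes, were not called in either direction. Col4a1 measured 69.6 and 63.2 FPKM with scramble siRNA and 77.5 and 89.5 FPKM with circEsyt2 siRNA. Its log2 fold change was 0.32 (SE 0.12; limma adjusted p = 0.145), and it was called higher only with GC content and length regressed out (adjusted p = 0.0278). Col4a2 measured 38.1 and 38.0 FPKM against 44.0 and 43.1 FPKM, a log2 fold change of 0.19 (SE 0.11; limma adjusted p = 0.303). Both circEsyt2 siRNA libraries lay above both scramble libraries for each of the pair. The ratio of Col4a5 to Col4a1 was 0.213 and 0.263 with scramble siRNA, against 0.105 and 0.084 with circEsyt2 siRNA, a change between chains that was not tested. Since Col4a1 and Col4a2 share bases at their starts, some fragments there cannot be assigned to either gene where strand is not used.

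As a class the fibrillar chains were the most abundant, and none of the 7 tested passed the test. Col1a1 and Col1a2, which together make type I collagen, measured 357 and 288.5 FPKM and 209 and 190.5 FPKM with scramble siRNA. In circEsyt2 siRNA replicate 1 they were at 213 and 162 FPKM, below both scramble libraries, and in replicate 2 at 290.6 and 196 FPKM, between them. Their log2 fold changes were −0.37 (SE 0.18; limma adjusted p = 0.234) and −0.16 (SE 0.13; limma adjusted p = 0.43), with 95% intervals from −0.81 to 0.08 and from −0.48 to 0.15. Col3a1, the chain of collagen III, was at 26.9, 25.1, 26.8 and 26.3 FPKM in the order scramble replicates 1 and 2, circEsyt2 siRNA replicates 1 and 2. Its log2 fold change was 0.03 (95% interval −0.27 to 0.33).

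The chains of collagen V, which sits inside type I fibrils and limits their width, lay on different sides of the scramble level. Col5a2 measured 178 and 165 FPKM with scramble siRNA and 210 and 247 FPKM with circEsyt2 siRNA, whereas Col5a1 measured 60.7 and 48.3 FPKM against 37.4 and 46.9 FPKM. Each gene's groups do not overlap, and the log2 fold changes were 0.41 (SE 0.12; limma adjusted p = 0.075) and −0.36 (SE 0.17; limma adjusted p = 0.216). Col5a2 was called higher when the minimum mean FPKM was raised to 5, with GC content and length regressed out, and by limma's voom on recovered fragment numbers (adjusted p = 0.0164). The ratio of Col5a2 to Col5a1 was 2.93 and 3.41 with scramble siRNA, against 5.62 and 5.27 with circEsyt2 siRNA. Col5a3, a minor chain, measured 2.80 and 2.60 against 3.98 and 5.26 FPKM (limma adjusted p = 0.139). Col11a1, a chain related to collagen V, measured 8.92 and 8.14 against 5.23 and 7.98 FPKM (limma adjusted p = 0.337). Transcripts annotated on the opposite strand overlap exons of Col5a1, and 1 on the same strand overlaps Col3a1, so some of their fragments may be shared.

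**Figure D2:**
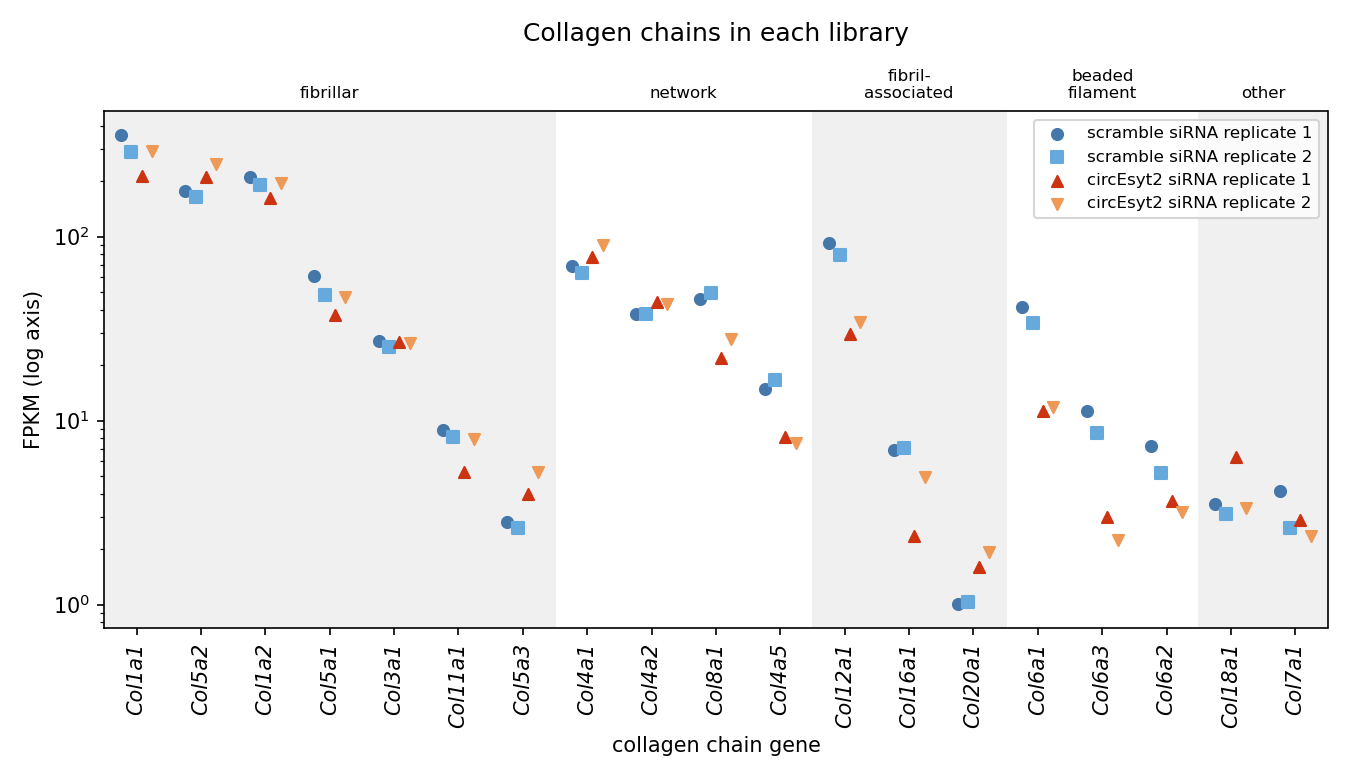
FPKM (vertical axis, log scale) of the 19 tested collagen chains in each of the 4 libraries (1 point per library), ordered by class and, within a class, by mean level. For Col6a1, Col6a3, Col12a1, Col8a1 and Col4a5 both circEsyt2 siRNA points lie below both scramble points; for Col1a1 only replicate 1 (213 FPKM) does.

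**Figure D3:**
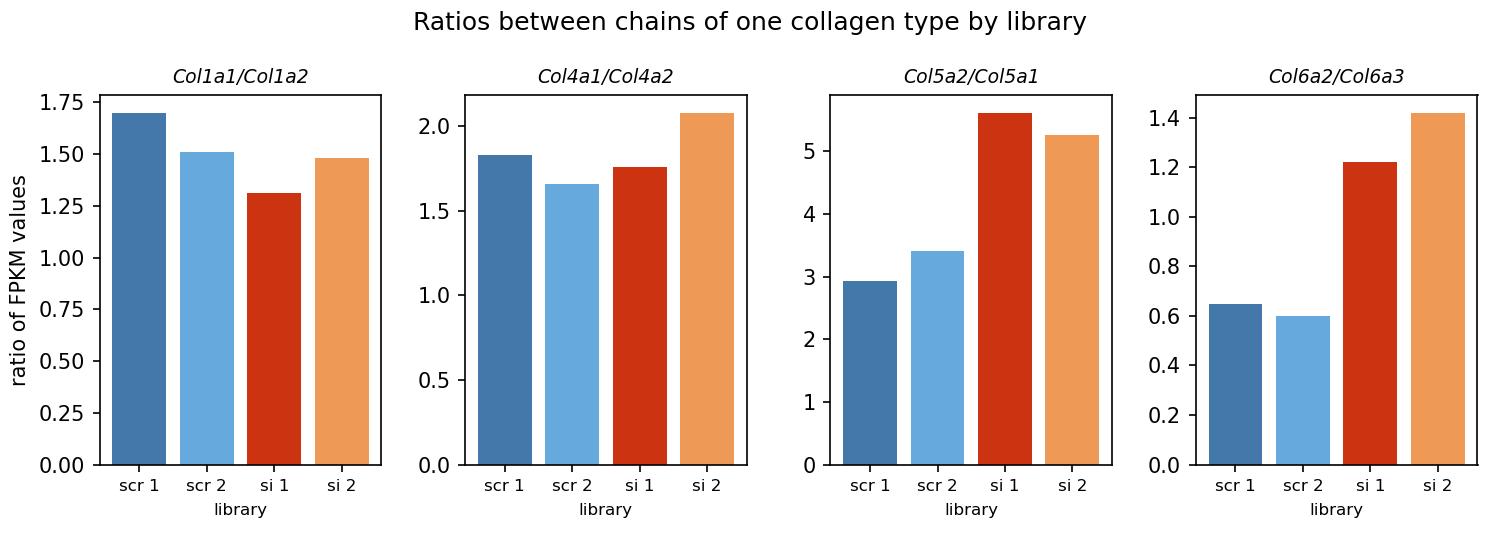
Ratio of FPKM values of chains of one collagen type (vertical axis, from 0) in each library (scr, scramble siRNA; si, circEsyt2 siRNA; 1 bar per library). The ratio of Col5a2 to Col5a1 goes from 2.93 and 3.41 to 5.62 and 5.27 and that of Col6a2 to Col6a3 from 0.646 and 0.601 to 1.22 and 1.42, while for Col1a1 to Col1a2 the values are 1.70, 1.51, 1.31 and 1.48.

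Of the other types, Col18a1 and Col7a1 were tested. Col18a1, which encodes the basement membrane collagen that releases endostatin, measured 3.51 and 3.11 FPKM with scramble siRNA and 6.32 and 3.37 FPKM with circEsyt2 siRNA. Only replicate 1 stood above both scramble libraries, and the gene did not pass the test (limma adjusted p = 0.407). Col7a1, the chain of anchoring fibrils, measured 4.13 and 2.60 against 2.89 and 2.36 FPKM (limma adjusted p = 0.573).

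The remaining 25 chains were below a mean of 1 FPKM and were not tested. They comprise 4 fibrillar, 5 network, 6 fibril-associated, 3 beaded filament and 7 other genes, with 0 to 42 fragments per library and a highest mean of 0.833 FPKM. All 44 genes had at least 1 fragment in some library. Col2a1, the fibrillar chain of cartilage, had 2 to 9 fragments per library. Col17a1, a transmembrane collagen of epithelial hemidesmosomes named here after its values were seen, had 9 and 12 fragments in the control libraries, against 0 in each circEsyt2 siRNA library. A floor of 3 fragments per library (0.138 and 0.166 FPKM) lies 3.70-fold below its scramble mean. That leaves out the counting error of the 9 and 12 fragments, so it is not a lower bound. When all genes above 0 were fitted, Col17a1 was not called (limma adjusted p = 0.197).

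The 2 circEsyt2 siRNA libraries differed in how far the chains lay from the scramble mean, to which both are compared. In each of them 12 of the 19 tested chains lay below that mean and 7 above it. The median difference over the 19 chains was −0.52 on the log2(FPKM + 1) scale in replicate 1 and −0.14 in replicate 2, beside 0.00 in each for all tested genes. Replicate 2 was higher than replicate 1 for 12 chains and lower for 7. The absolute difference between these 2 libraries had a median of 0.234 for the 19 chains, near the 0.227 of all tested genes. Between the scramble libraries the medians were 0.136 for the chains and 0.191 for all tested genes. Col1a1 and Col1a2 lay below both scramble libraries in replicate 1 and not in replicate 2, and Col7a1 did so in replicate 2 alone. For 2 chains of collagen VI the replicates were close, with differences from the scramble mean of −1.65 and −1.58 for Col6a1 and −0.62 and −0.77 for Col6a2. Those of Col6a3 lay further apart, at −1.45 and −1.74. For Col16a1 the differences from the scramble mean were −1.25 and −0.44, and for Col1a1 −0.59 and −0.14. The part of the hepatocyte RNA of replicate 1 in its lower type I collagen values was not tested. The 5 called chains lay between −1.74 and −0.76 from the scramble mean in replicate 2.

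**Figure D4:**
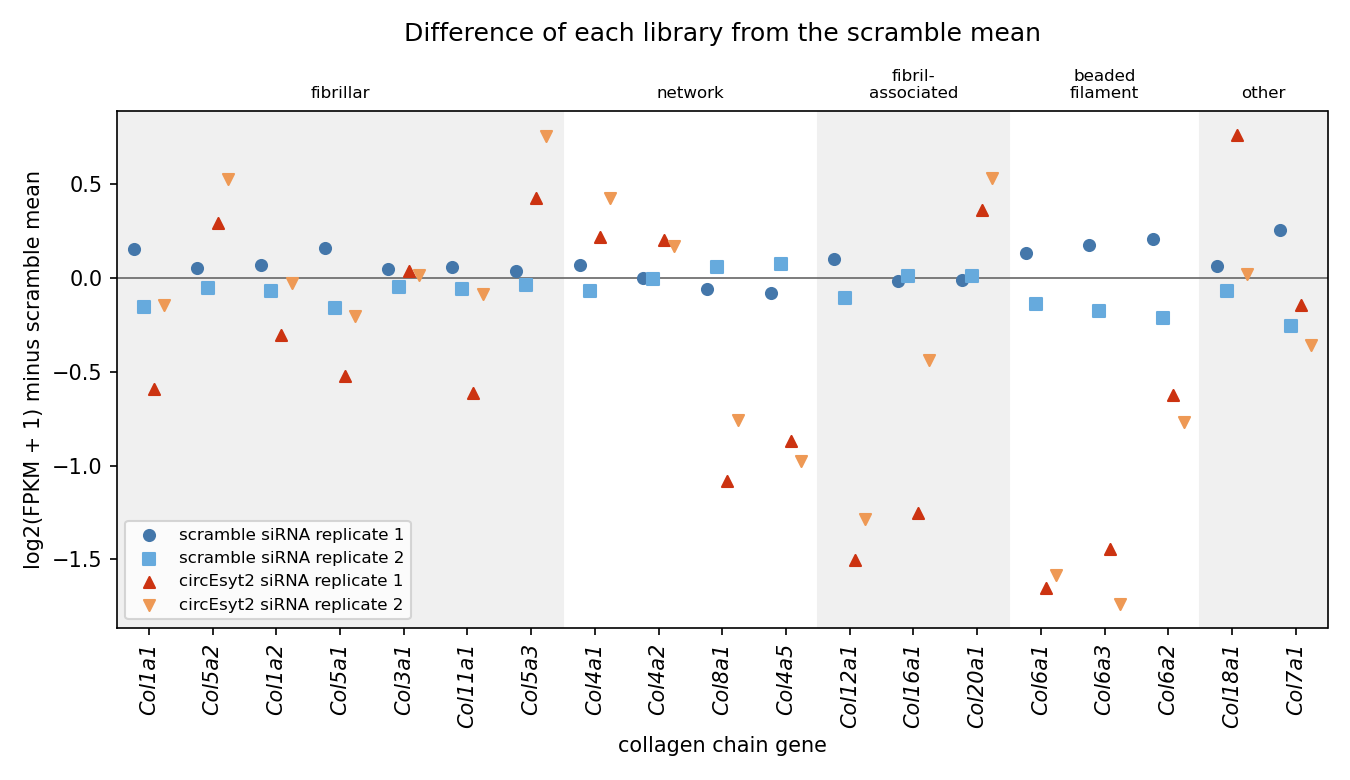
Difference of log2(FPKM + 1) in each library from the mean of the scramble libraries (vertical axis, 0 is that mean) for the 19 tested chains, ordered by class (1 point per library). Both circEsyt2 siRNA points lie far below 0 for Col6a1 (−1.65 and −1.58) and Col12a1 (−1.50 and −1.29), while for Col1a1 (−0.59 and −0.14) and Col16a1 (−1.25 and −0.44) replicate 1 lies lower than replicate 2.

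Groups that do not overlap were common. Among the 19 chains 9 were lower and 5 higher in both circEsyt2 siRNA libraries than in both scramble libraries, beside 31.1% and 29.7% of all tested genes. A fit without circEsyt2 siRNA replicate 1 called the same 5 chains lower and 0 higher (5.63% and 3.66% of all tested genes). A fit without replicate 2 called 3 of 20 chains lower, Col12a1, Col6a1 and Col8a1, and 0 higher (2.00% and 2.38% of all tested genes), with Col6a3 at an adjusted p = 0.0682 and Col4a5 at an adjusted p = 0.0833 (limma). Leaving out either scramble library left limma with 0 calls over all genes, and 5 chains without replicate 1 and 6 without replicate 2 were lower at an unadjusted p under 0.05, beside 9.16% and 10.2% of all tested genes. In the same fits the log2 fold changes of the 5 called chains lay between −1.77 and −0.84.

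**Figure D5:**
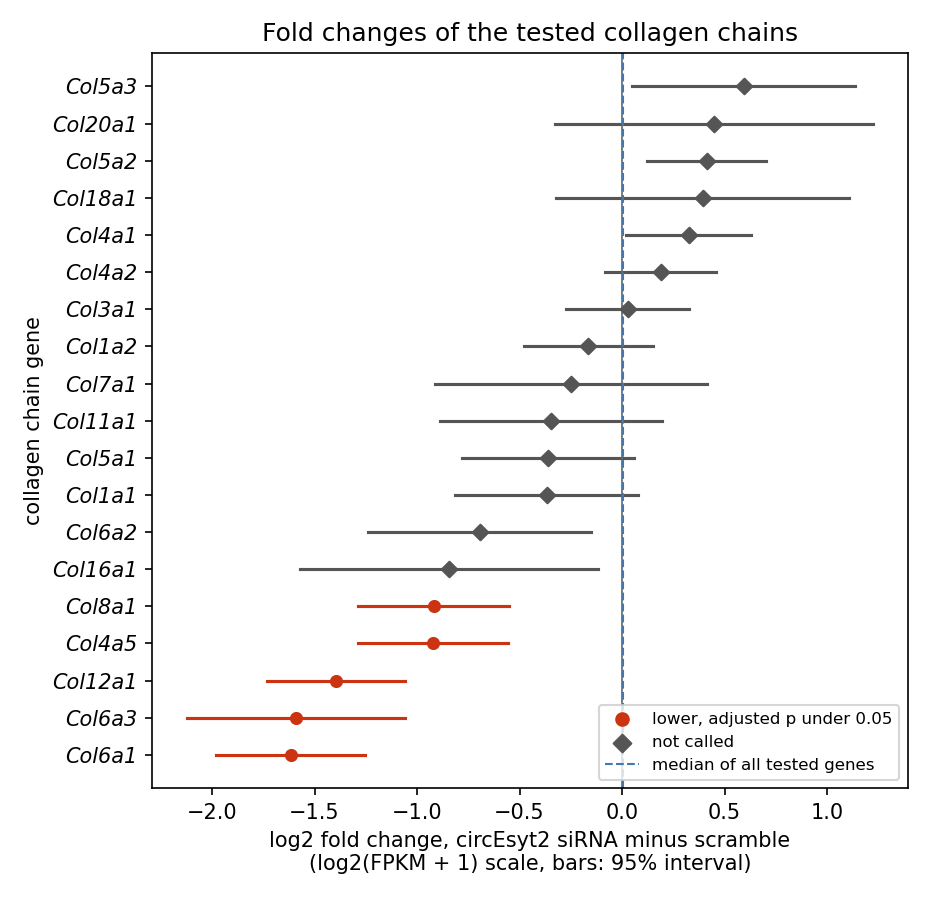
Log2 fold change of circEsyt2 siRNA over scramble siRNA on the log2(FPKM + 1) scale (horizontal axis; points, limma estimates; bars, 95% intervals) for the 19 tested chains, in order of size. The 5 called chains run from −0.92 to −1.62, and the intervals of Col6a2 and Col16a1, which were not called, also lie below 0, as those of Col5a2, Col5a3 and Col4a1 lie above 0. The dashed line is the median of all tested genes.

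Genes that act on collagen chains after translation were lower in part. Of 28 hydroxylases, chaperones, processing proteases and crosslinking enzymes, 27 were tested, 9 were called lower and 0 higher, beside 7.26% and 5.47% of all tested genes, and their median log2 fold change was −0.41, beside 0.00 for all tested genes. P4ha2, a catalytic subunit of prolyl 4-hydroxylase, which stabilises the triple helix, measured 52.4 and 49.8 FPKM with scramble siRNA and 23.2 and 21.6 FPKM with circEsyt2 siRNA (limma adjusted p = 0.00508). Loxl3, a lysyl oxidase-like enzyme of collagen crosslinking, measured 44.9 and 41.4 against 12.4 and 15.4 FPKM (limma adjusted p = 0.00492). Both calls held without either circEsyt2 siRNA library. P4ha3, P3h3 and P3h4 of the prolyl hydroxylase families, Crtap, a partner of prolyl 3-hydroxylase, Serpinh1, the collagen chaperone HSP47, Adamts2, a procollagen N-proteinase, and Loxl4 also fell. Of these 7 calls, P4ha3 was lost without circEsyt2 siRNA replicate 2, the other 6 with either replicate left out, and all 7 without a trend. When all genes above 0 were fitted, Crtap, Serpinh1, Adamts2 and Loxl4 were not called either. Serpinh1 also lost its call with median ratio or trimmed mean scaling, and Adamts2 with a minimum mean FPKM of 5 or with GC content and length regressed out. Lox, the lysyl oxidase gene, was at 911 and 925 FPKM against 838 and 958 FPKM (limma adjusted p = 0.842). Bmp1 of the same list went the other way, at 22.3 and 19.2 against 29.2 and 36.9 FPKM (limma adjusted p = 0.0568). By limma's voom on recovered fragment numbers it was called higher (adjusted p = 0.0123). A pseudocount of 0.1, a minimum mean FPKM of 5, and GC content and length regressed out each gave 1 gene of the list called higher. Of 10 collagen receptor genes, 7 were tested and 1, Itgb1, the shared beta1 integrin subunit, was called higher, beside 5.47% of all tested genes. It stood at 355 and 382 against 493 and 587 FPKM (limma adjusted p = 0.0368), a call that did not hold when circEsyt2 siRNA replicate 2 was left out, without a trend or when all genes above 0 were fitted. The other 6 tested receptor genes were not called.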

How the data were processed

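The deposited values are FPKM, made by the authors with Trimmomatic, HISAT2 and featureCounts on GRCm38 (mm10), per the submitters' processing notes; settings, versions and strand use: not given in the sources used here. Since FPKM is relative to the library total, very abundant RNAs lower the values of the rest. Fragment totals and numbers were recovered from the FPKM digits with exon-union lengths of GENCODE M21 (96.5% of the 20745 genes above 0 gave whole fragments within 0.0001; for 722 others, Col11a2 and Col17a1 included, the smallest fitting length was solved, so their fragment numbers are lower bounds). They cover counting error only.

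Values on the log2(FPKM + 1) scale were tested with limma 3.58.1 (R 4.3.3, eBayes with a trend, two-sided). The 11290 genes whose mean FPKM reached 1 were fitted, with Benjamini-Hochberg adjustment over all of them and a threshold of 0.05. A log2 fold change on that scale understates the change of low genes. The members, classes and lists were chosen with earlier results of these data known. By rule, chains called or at a mean FPKM of 5 or more and the called members of the pathway lists were named. The other tested chains, the low chains named singly, Lox and Bmp1 fall outside that rule and were added after their values were seen. Leave-out fits apply the filter again to their 3 libraries, and the spread of a lone library is assumed to equal that of the other group. Replicates differed by more than counting noise (chi-square per degree of freedom 3.74 and 9.24), so each library was 1 sample. Analyses used Python 3.11.15.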

Additional observations from a re-analysis of the deposited data

How the results depend on the processing

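Over 14 alternatives to the fit, none reversed a called chain. Of the 261 values for tested chains, 242 kept their side of the threshold, 14 lost a call and 5 gained one. Most of the 242 belong to chains that were not called and stayed so. All 14 lost calls fell on the 5 called chains, which have 14 alternatives each. The sign of a chain not called turned in 3 of the 242 (Col3a1 to −0.01 with quantile normalization and −0.02 without scramble replicate 2, Col7a1 to 0.008 without scramble replicate 1). The count of chains called lower was 5 as reported, 3 with eBayes without a trend, and 0 to 5 when leaving out 1 library (0 without either scramble library, 3 without circEsyt2 siRNA replicate 2), and voom on recovered fragments also called Col16a1 lower. The count called higher was 0 as reported, 1 with a minimum mean FPKM of 5 (Col5a2), 2 with GC content and length regressed out (Col5a2 and Col4a1) and 1 with voom (Col5a2). The log2 ratio of the summed FPKM ranged on leaving out 1 library from −0.26 to 0.06 for fibrillar chains (positive without scramble replicate 1 or circEsyt2 siRNA replicate 1), from −0.13 to −0.003 for network chains, from −1.69 to −1.38 for beaded filament chains and from −0.24 to 0.30 for the other types (negative without circEsyt2 siRNA replicate 1). Over all tested genes 820 were lower and 617 higher, against 374 and 203 without a trend, 1165 and 900 with voom, 588 and 418 when unfiltered, 604 and 404 with the replicate block, and 0 and 0 without either scramble library (1959 and 2231 genes at an unadjusted p under 0.05). The titles number the libraries 1 and 2 in both groups, but same-numbered libraries did not deviate together (r = −0.05 across 11290 genes, which are not independent replicates). With 2 libraries per group that cannot show whether same-numbered libraries share a culture or batch, which the labels do not state. In the fit with the replicate block 5 chains were called lower and 0 higher, as without it. Crtap, Serpinh1, Adamts2 and Itgb1 lost their calls there (limma adjusted p from 0.0548 to 0.113). Depth limits the 25 untested chains, which had at most 42 fragments in a library.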
